A study of Homo sapiens with 6 samples.

Results

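The BCL2 family decides at the outer mitochondrial membrane whether a cell enters apoptosis, and 10 of its genes are described here: BCL2L11, BMF, BBC3, PMAIP1, BIK, BID, BAX, BAK1, BCL2L1 and MCL1. They were taken by gene name from a table of 58735 genes, each name stood on 1 row, and the rule uses no measured value. RNA came from wild-type HaCaT cells, an immortal human keratinocyte line that is not tumorigenic. One group of 3 samples is labelled as control and the other group of 3 was exposed for 48 h to dacomitinib, which irreversibly blocks EGFR, ERBB2 and ERBB4. The design text starts treatment at 70% confluence and names 0.1% DMSO for the experimental group. What the controls received and which dose was used is not given in the labels. All samples come from 1 cell line, and no label says that the samples of a group were separate cultures, so p-values reflect only how much these samples vary, and that variation may be technical. The treated columns of the table carry a letter found in no label and were taken as dacomitinib because the other columns carry the initial of control. Every direction below rests on that assignment.

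The family has 3 working parts. BAX and BAK1 are the effectors that assemble into pores in the mitochondrial membrane and let cytochrome c out. BCL2L1 (BCL-XL) and MCL1 hold the effectors and their activators in check. The BH3-only proteins, here BCL2L11 (BIM), BMF, BBC3 (PUMA), PMAIP1 (NOXA), BIK and BID, carry stress signals to the family: they bind the anti-apoptotic proteins through a short helix, and some of them also activate BAX and BAK1 directly. In epithelial cells ERK signalling below EGFR is known to keep BIM low, by phosphorylation that leads to its degradation and by restraint of its gene, and forkhead FOXO factors are known to activate the BCL2L11 gene. RNA levels do not show these protein steps.

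The libraries held 14960650 to 16179273 fragments on genes, and 100% of the values of each library could be turned back into whole fragments. Log2 values correlated across tested genes at 0.970 to 0.979 within groups and 0.870 to 0.888 between groups (genes are not independent replicates). All 14 keratinocyte markers examined passed the expression limit (KRT16 only through its level in the treated libraries). Their summed level was 1425 to 1481 FPKM in controls and 1186 to 1325 FPKM with dacomitinib. Of the 14, 6 were higher and 7 lower in every treated library than in any control, so the lower sum does not describe each marker. FPKM counts fragments relative to the length of the gene and the size of the library, and that size was rescaled before deposit. For the 10 members the length is that of all annotated exons. Comparisons between genes below rest on that length, which can differ from that of the transcripts present. Of 23 markers of other skin cells 2 passed the limit, and their summed level was 4.32 to 5.60 FPKM in controls and 15.9 to 19.9 FPKM with dacomitinib. Of the 23, 7 were higher in every treated library than in any control and none was lower in that way. The groups were apart, in either direction, in 67.1% of all tested genes, though most of the 23 were too low to be tested. CDH5, an endothelial cadherin gene, made up most of the treated sum, at 1.06, 1.17 and 1.22 FPKM in controls and 11.4, 8.60 and 10.0 FPKM with dacomitinib (limma adjusted p = 6.33e-06). COL3A1, DCN, LUM, VWF, PMEL and DCT were the others: DCN had 11 fragments in all controls together and 584 in the treated libraries, LUM 1 and 43, and VWF 153 and 628. COL3A1 passed the limit only through its level in the treated libraries. COL1A2, KDR, TYR and TPSAB1 had no fragment in any library, and VIM had 3 fragments in all controls together and 0 in the treated libraries. Mitochondrial genes took 7.38% to 8.08% of the fragments in controls and 4.61% to 4.90% with dacomitinib. The part of these shifts in the results below was not tested.

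The DNA just upstream of the start site is shown for 4 members whose RNA differed between the groups, 2 higher (BCL2L11, BMF) and 2 lower (PMAIP1, BAX). The stretches come from RefSeq on GRCh38.p14, run 5′ to 3′ on the gene's strand, and lie within the 250 bases before the RefSeq start. Bases that GENCODE release 29 annotates as exon were left out. Capitals mark every match to the motifs that are spelled out after the sequences, on either strand.
BCL2L11, chr2:111120664-111120913, plus strand: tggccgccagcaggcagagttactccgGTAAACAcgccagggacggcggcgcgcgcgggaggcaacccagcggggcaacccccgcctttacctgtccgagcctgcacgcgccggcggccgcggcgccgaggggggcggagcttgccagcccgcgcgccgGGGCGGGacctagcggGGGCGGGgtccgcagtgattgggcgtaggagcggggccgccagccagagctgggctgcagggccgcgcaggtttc
BMF, chr15:40108893-40109129, minus strand: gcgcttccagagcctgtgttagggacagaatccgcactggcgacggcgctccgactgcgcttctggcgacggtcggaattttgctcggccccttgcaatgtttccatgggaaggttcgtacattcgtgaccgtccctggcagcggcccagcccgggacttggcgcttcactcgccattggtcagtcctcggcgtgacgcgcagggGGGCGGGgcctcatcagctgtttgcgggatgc
PMAIP1, chr18:59899746-59899947, plus strand: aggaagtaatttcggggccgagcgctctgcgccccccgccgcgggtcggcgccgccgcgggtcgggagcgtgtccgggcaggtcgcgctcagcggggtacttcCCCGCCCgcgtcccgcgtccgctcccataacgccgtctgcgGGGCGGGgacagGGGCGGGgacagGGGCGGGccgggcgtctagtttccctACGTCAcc
BAX, chr19:48954625-48954814, plus strand: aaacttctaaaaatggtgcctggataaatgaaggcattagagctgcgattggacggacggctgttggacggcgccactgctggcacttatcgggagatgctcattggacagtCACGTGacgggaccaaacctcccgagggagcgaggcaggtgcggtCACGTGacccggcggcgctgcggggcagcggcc

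The motifs were forkhead (GTAAACA), AP-1 (TGANTCA), the full CRE (TGACGTCA), its core (TGACGT, which the full CRE contains), ETS (CCGGAAG), the E-box (CACGTG) and the GC box (GGGCGGG). Windows of 250 bases were found for 8 members, 14 windows in all since some genes have several starts. Some BID windows overlap each other, while those of BMF and those of BCL2L1 do not. No window was found for BIK or MCL1, and the BCL2L1 windows held none of the motifs. The forkhead motif stood in the BCL2L11 window, beginning 223 bases before the start, and in no other member window. That window lies inside the gene span of GENCODE, which lists 7 starts for BCL2L11. Of all 35116 windows of this length 2.98% held it. The BAX window held 4 E-boxes, beginning 138, 93, 45 and 14 bases before the start. The nearer pair lies in annotated exon and is not printed. An E-box stood in 6.34% of all windows, and 4 or more of them stood in 5 windows of the 35116 (0.0142%). E-boxes were also found upstream of BBC3 and BID. The PMAIP1 window held 4 GC boxes and a CRE core 56 bases before the start. GC boxes stood in 31.5% of all windows, 4 or more in 3.08%, and the CRE core in 7.10%. Windows of BAK1, BCL2L11 and BID held GC boxes too, and some BID windows held 4 as well. The BMF window shown held 1 GC box, and the other BMF window held none of the motifs. The AP-1 motif stood only in the BBC3 window among the members (6.57% of all windows), and the ETS motif and the full CRE in none of the 14 (8.52% and 1.65% of all windows). A match describes the letters of a window and no more.

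The test was limma on log2(FPKM + 1), run on the 13748 genes that averaged 1 FPKM or more, at a Benjamini-Hochberg adjusted p of 0.05. With dacomitinib 3 of the 10 members were higher (BCL2L11, BMF and BCL2L1), against 25.4% of all tested genes. Another 4 were lower (PMAIP1, BID, BAX and BAK1), against 34.8% of all tested genes. BBC3, BIK and MCL1 did not pass. The 7 members called stand against 60.2% of all tested genes called, so the number of calls does not set the family apart. In 8 of the 10 the libraries of the groups did not overlap in FPKM, as in 67.1% of all tested genes. The median log2 difference of the members was -0.0045, against -0.06 over all tested genes. All 10 passed the expression limit, BMF only through its level in the treated libraries. Because the samples are bulk RNA, fewer cells of one kind and less RNA per cell cannot be told apart.

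**Figure D1:**
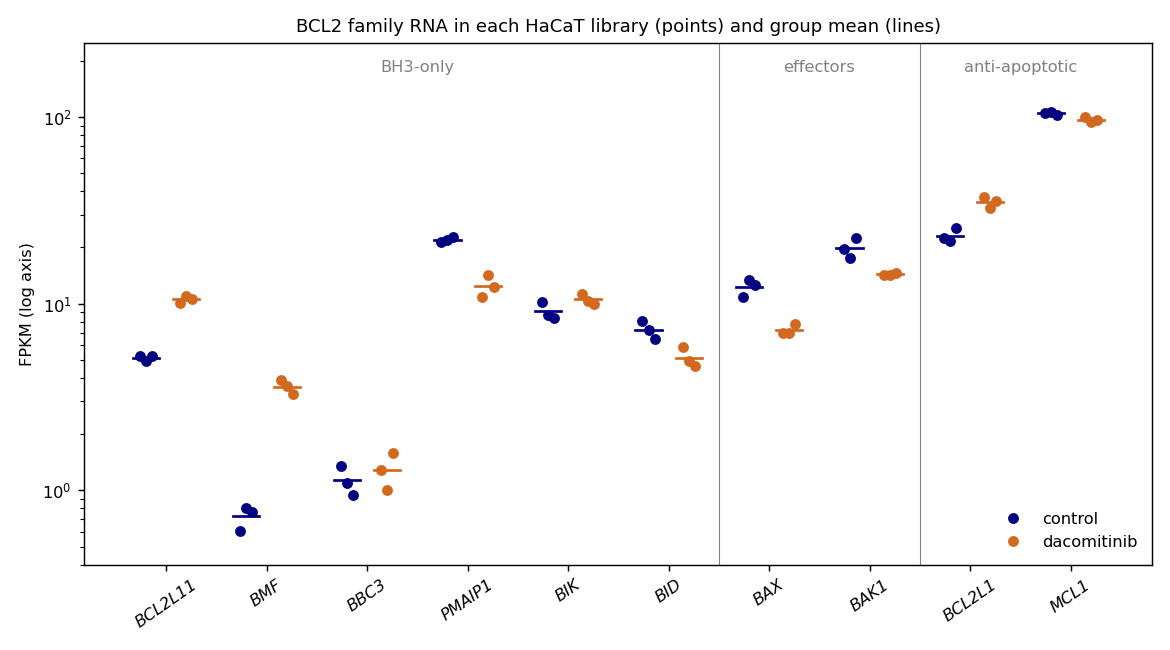
Level of each BCL2 family gene in FPKM on a log axis, in 3 control libraries (blue points) and 3 dacomitinib libraries (orange points), with lines at the group means and the genes ordered by role. The points of the groups are apart for BCL2L11, BMF, PMAIP1, BID, BAX, BAK1, BCL2L1 and, by little, MCL1, and overlap for BBC3 and BIK.

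Among the BH3-only genes, BCL2L11 and BMF rose. BCL2L11 (ENSG00000153094, chr2:111119378-111168447, plus strand, GRCh38) encodes BIM, which binds all the main anti-apoptotic proteins and can activate BAX and BAK1. It stood at 5.24, 4.96 and 5.23 FPKM in the controls and at 10.1, 11.0 and 10.6 FPKM with dacomitinib. Every treated library was far above every control, and the spread within each group was small. The means were 5.14 ± 0.161 and 10.6 ± 0.444 FPKM (SD, n = 3), and the log2 difference was 0.91 (SE 0.053, limma adjusted p = 2.03e-05). The values rest on 494 to 512 fragments per control library and 1125 to 1231 per treated library. Of all tested genes, 6.56% rose more.

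BMF (ENSG00000104081, chr15:40087890-40108892, minus strand) encodes a BH3-only protein that dynein light chain is known to hold at the actin-based cytoskeleton. It had the lowest level of the 10 genes in the controls, at 0.609, 0.809 and 0.762 FPKM, and reached 3.90, 3.61 and 3.29 FPKM with dacomitinib. No treated library came near the control range. The control values rest on 47, 68 and 61 fragments and the treated values on 355, 326 and 312. The means were 0.727 ± 0.104 and 3.60 ± 0.302 FPKM (SD, n = 3), a ratio of 4.95. The log2 difference in FPKM + 1 was 1.41 (SE 0.11, limma adjusted p = 5.65e-05), which the added 1 holds down at such levels. On recovered fragments limma-voom gave 2.30 (SE 0.20).

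PMAIP1 fell. It encodes NOXA, a BH3-only protein that binds mainly MCL1 (ENSG00000141682, chr18:59899948-59904306, plus strand). The controls stood close together at 21.4, 22.0 and 22.8 FPKM, and the treated libraries were more spread, at 10.9, 14.2 and 12.2 FPKM. The groups did not overlap. The mean fell from 22.1 ± 0.716 to 12.5 ± 1.66 FPKM (SD, n = 3), a log2 difference of -0.78 (SE 0.090, limma adjusted p = 0.000375). By mean FPKM PMAIP1 had the highest value of the BH3-only RNAs in both groups. In the treated libraries it overlapped with BCL2L11, and the ratio of BCL2L11 to PMAIP1 was 0.225 to 0.245 in controls and 0.773 to 0.926 with dacomitinib.

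BID, which death receptor signalling cuts into an active fragment (ENSG00000015475, chr22:17734138-17774770, minus strand), also fell. It stood at 8.05, 7.25 and 6.47 FPKM in controls and at 5.87, 4.94 and 4.61 FPKM with dacomitinib. The highest treated library was below the lowest control by less than the spread within either group. The log2 difference was -0.43 (SE 0.10, limma adjusted p = 0.0105). With TPM, which scales every library to the same total of length-normalised values, it was -0.17 (adjusted p = 0.174).

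BBC3 and BIK did not pass the test. BBC3 encodes PUMA, which binds all the main anti-apoptotic proteins (ENSG00000105327, chr19:47220822-47232766, minus strand). It stood at 1.35, 1.10 and 0.941 FPKM in controls and at 1.28, 1.00 and 1.59 FPKM with dacomitinib, on 44 to 88 fragments per library. The groups overlapped, and the log2 difference was 0.10 with a 95% interval of -0.27 to 0.47 (adjusted p = 0.607) on the log2(FPKM + 1) scale, so a change of either sign within that interval was not detectable at this depth. The added 1 narrows both values at this level: limma-voom gave 0.19 (SE 0.26) and TPM 0.41 (SE 0.24), so larger changes are not excluded either. BIK, a BH3-only protein of the endoplasmic reticulum (ENSG00000100290, chr22:43110748-43129712, plus strand), stood at 10.2, 8.71 and 8.42 FPKM in controls and 11.2, 10.4 and 10.0 FPKM with dacomitinib. Control 1 was above the lowest treated library. The log2 difference of BIK was 0.19 (95% interval -0.0023 to 0.39, adjusted p = 0.0803), on 118 to 179 fragments per library. It passed without control replicate 1, at 0.27 (adjusted p = 0.0207), and with TPM, at 0.52 (adjusted p = 0.00124).

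Both effector genes were lower with dacomitinib. BAX (ENSG00000087088, chr19:48954815-48961798, plus strand), which moves from the cytosol to mitochondria when activated, stood at 10.9, 13.3 and 12.6 FPKM in controls and at 6.95, 6.97 and 7.82 FPKM with dacomitinib. The treated libraries lay together below all controls. The mean went from 12.3 ± 1.24 to 7.25 ± 0.495 FPKM (SD, n = 3), a log2 difference of -0.68 (SE 0.084, limma adjusted p = 0.000502). BAK1 (ENSG00000030110, chr6:33572547-33580293, minus strand), which resides in the mitochondrial membrane, stood at 19.6, 17.6 and 22.5 FPKM in controls and at 14.3, 14.3 and 14.5 FPKM with dacomitinib. Its controls were the spread group and its treated libraries were nearly equal. The log2 difference of BAK1 was -0.44 (SE 0.085, adjusted p = 0.00397), and it did not pass with TPM (-0.15, adjusted p = 0.240) or with quantile normalization (-0.21, adjusted p = 0.0581).

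Of the anti-apoptotic genes BCL2L1 rose, and MCL1 did not pass the test. BCL2L1 (ENSG00000171552, chr20:31664452-31723989, minus strand) encodes BCL-XL, and a shorter splice form of opposite effect, BCL-XS, that gene-level values do not separate. It stood at 22.4, 21.6 and 25.3 FPKM in controls and at 37.3, 32.7 and 35.3 FPKM with dacomitinib. All treated libraries were above all controls. The mean rose from 23.1 ± 1.93 to 35.1 ± 2.30 FPKM (SD, n = 3), a log2 difference of 0.58 (SE 0.075, limma adjusted p = 0.000607). MCL1 (ENSG00000143384, chr1:150574551-150579738, minus strand), a protein of short life that depends on steady synthesis, was the most abundant of the 10 RNAs in every library. It stood at 104.8, 105.8 and 102.7 FPKM in controls and at 99.5, 94.5 and 96.3 FPKM with dacomitinib. The treated libraries lay just below the controls. The log2 difference was -0.11 (SE 0.040, 95% interval -0.21 to -0.013, adjusted p = 0.0520). Its sign depends on the scaling: with TPM MCL1 was higher by 0.21 (adjusted p = 0.00231), and with quantile normalization the difference was 0.07 (adjusted p = 0.0996). Without dacomitinib replicate 1 it passed as lower, at -0.13 (adjusted p = 0.0341).

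The 10 genes summed to 203.2 to 207.7 FPKM in controls and 193.5 to 201.4 FPKM with dacomitinib. With TPM the direction turned, to 682.5 to 717.6 TPM in controls and 816.7 to 847.0 TPM in the treated libraries. Shares of the sum within a library do not depend on the scaling between libraries. MCL1 held 49.4% to 52.1% of this sum in controls and 48.8% to 49.4% with dacomitinib. The share of BCL2L1 was 10.6% to 12.2% in controls and 16.9% to 18.5% in the treated libraries. The FPKM of MCL1 was 4.06 to 4.90 times that of BCL2L1 in controls and 2.67 to 2.89 times with dacomitinib. The share of BCL2L11 went from 2.44% to 2.56% in controls to 5.01% to 5.67% with dacomitinib, and that of BMF from 0.298% to 0.398% to 1.68% to 1.93%. The shares of PMAIP1, BAX, BAK1 and BID were lower in every treated library than in any control. The share of BIK was higher, at 4.05% to 5.00% in controls and 5.10% to 5.58% with dacomitinib, while its FPKM overlapped between the groups.

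**Figure D2:**
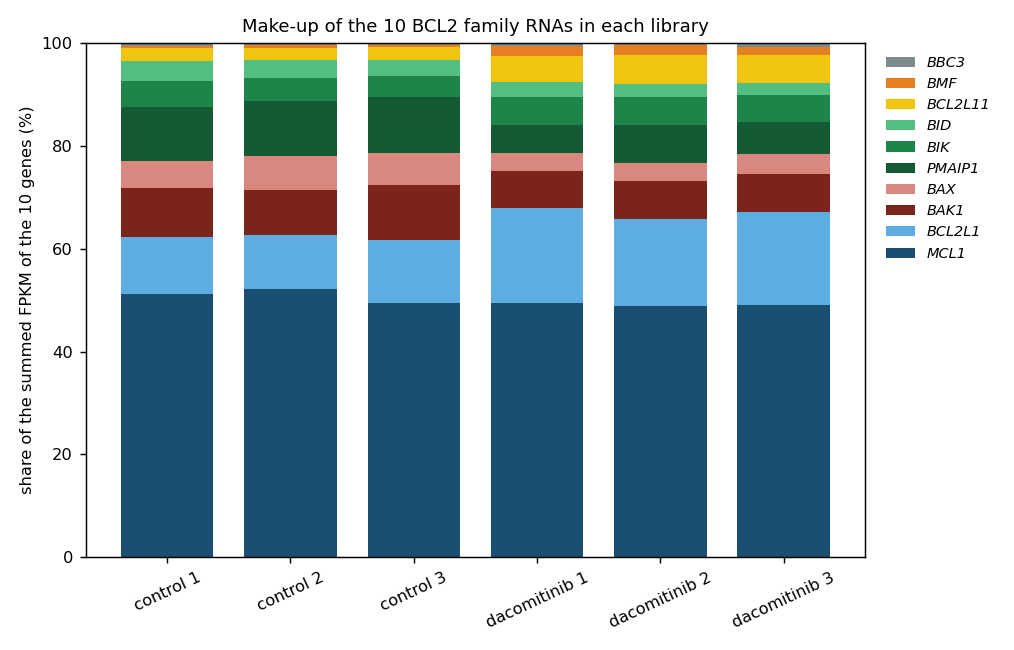
Share of each gene, in percent, of the summed FPKM of the 10 genes in each of the 6 libraries (stacked bars from 0 to 100). The BCL2L1, BCL2L11 and BMF segments are thicker in the 3 dacomitinib libraries, the PMAIP1, BAX and BAK1 segments are thinner, and MCL1 holds 48.8% to 52.1% in every library.

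Summed by role, the 6 BH3-only RNAs came to 45.4 ± 1.23 FPKM in controls and 43.6 ± 1.40 FPKM with dacomitinib (SD, n = 3). The groups overlapped, with the highest treated library, at 45.1 FPKM, above 2 of the 3 controls. With TPM the sums did not overlap, at 157.2, 150.6 and 154.1 TPM in controls and 175.5, 197.5 and 179.7 TPM with dacomitinib. The effectors summed to 30.5 to 35.1 FPKM in controls and 21.2 to 22.3 FPKM with dacomitinib, and were lower in every treated library with TPM as well. The anti-apoptotic RNAs summed to 127.2 to 128.0 FPKM in controls and 127.2 to 136.8 FPKM with dacomitinib, and the groups overlapped. With TPM these sums were apart, at 426.9 to 442.1 TPM in controls and 554.9 to 558.2 TPM with dacomitinib. The ratio of summed effectors to summed anti-apoptotic RNA was 0.240 to 0.275 in controls and 0.156 to 0.170 with dacomitinib. That of summed BH3-only to summed anti-apoptotic RNA overlapped, at 0.349 to 0.368 in controls and 0.316 to 0.355 with dacomitinib. BCL2L1 alone stood at 1.62 to 2.06 times BAX in controls and at 4.52 to 5.36 times BAX in the treated libraries.

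By mean FPKM the order in controls was MCL1, BCL2L1, PMAIP1, BAK1, BAX, BIK, BID, BCL2L11, BBC3 and BMF. The libraries of BCL2L1 overlapped with those of PMAIP1, and those of PMAIP1 with those of BAK1, while the other neighbours were apart. With dacomitinib the order was MCL1, BCL2L1, BAK1, PMAIP1, BCL2L11, BIK, BAX, BID, BMF and BBC3. There the libraries of PMAIP1, BCL2L11 and BIK overlapped from neighbour to neighbour. BCL2L11 went from place 8 to place 5, and BMF and BBC3 changed places at the low end.

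How many members were higher and how many lower turned on how the libraries were scaled to each other. With TPM 7 members were called, against 61.8% of all tested genes. Of these 5 were higher, against 42.0%, and 2 were lower, against 19.8%. MCL1 and BIK joined those higher, and BID and BAK1 no longer passed. The median of the members was then 0.31, against 0.235 over all tested genes. The calls of BCL2L11, BMF, BCL2L1, PMAIP1 and BAX kept their direction and passed under all 18 alternatives, except that BMF could not be tested at a mean of at least 5 FPKM. Over those alternatives BCL2L11 differed by 0.89 to 1.31, BMF by 1.33 to 2.30 and BCL2L1 by 0.54 to 0.91 on the log2 scale. PMAIP1 differed by -0.88 to -0.51 and BAX by -0.76 to -0.43.

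**Figure D3:**
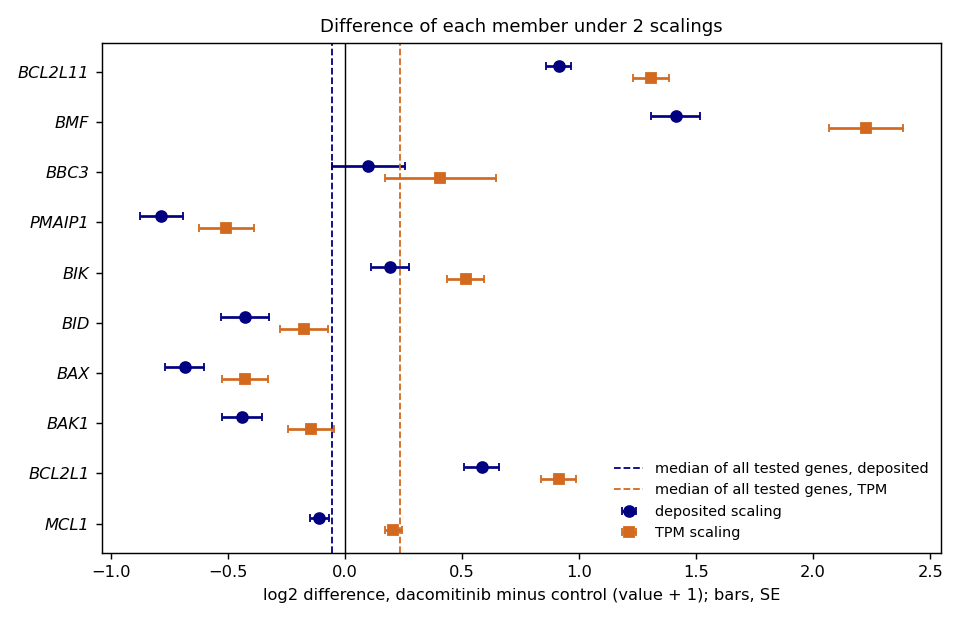
Log2 difference of each gene, dacomitinib minus control, with SE bars, on the deposited scaling (blue circles) and with TPM (orange squares), beside the median of all tested genes on each scale (dashed lines). The TPM value lies to the right of the deposited one for all 10 genes. MCL1 crosses 0, while BCL2L11, BMF and BCL2L1 stay to the right of both medians and PMAIP1 and BAX to the left.

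Several members share their position with other genes, and no source used here says that fragments were counted by strand. BCL2L11 lies inside the opposite-strand MIR4435-2HG, whose mean was 3.20 FPKM in controls and 3.81 FPKM with dacomitinib. BCL2L1 overlaps the antisense AL117381.1, at 1.13 and 1.72 FPKM, and ABALON, at 0.627 and 0.257 FPKM. BAK1 overlaps GGNBP1, at 0.0783 and 0.224 FPKM. BMF-AS1 and the microRNA genes inside BBC3 were listed at 0 in all libraries. BID holds MIR3198-1, at 1.08 and 0.498 FPKM, and MCL1 meets ADAMTSL4-AS1 over 2 bases. PMAIP1, BIK and BAX overlapped no other gene of the table. GENCODE release 29 lists 25 transcripts for BCL2L11, 15 for BID and 13 for BAX, and 1 for BIK. The values sum over all exons of a gene and say nothing of its splice forms.

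Of 13 other BCL2 family genes 8 passed the expression limit, with a median log2 difference of -0.03. Of these 4 rose and 2 fell, against 25.4% and 34.8% of all tested genes. Neither this list nor those below were tested as sets. HRK, a BH3-only protein best known from neurons, rose from 1.67 ± 0.0252 to 3.09 ± 0.301 FPKM (SD, n = 3), with a log2 difference of 0.61 (SE 0.090, limma adjusted p = 0.00112). BCL2L13, a mitochondrial membrane protein, rose from 20.0 ± 0.359 to 27.4 ± 0.416 FPKM (0.43, SE 0.039). BCL2L2 (BCL-W), an anti-apoptotic protein, rose from 9.85 ± 0.472 to 12.4 ± 1.26 FPKM and did not pass once control replicate 1 was left out (adjusted p = 0.0517). BNIP3L, a mitophagy receptor, rose by 0.17 (adjusted p = 0.0329). That call was lost without the expression limit (limma adjusted p = 0.0551). Leaving out dacomitinib replicate 3 (adjusted p = 0.0890) or any 1 control (adjusted p = 0.0641 to 0.103) lost it too.

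BCL2L12 fell from 8.42 ± 0.862 to 2.92 ± 0.483 FPKM (SD, n = 3), the largest fall in the list at -1.27 (SE 0.11, limma adjusted p = 0.000130). BOK, an effector-like protein, fell from 4.54 ± 0.965 to 2.49 ± 0.260 FPKM. BAD, a BH3-only protein under control of AKT and other kinases, did not pass, at 4.45 ± 0.573 and 3.12 ± 0.846 FPKM (adjusted p = 0.0669). It passed as lower without dacomitinib replicate 3 (-0.53, adjusted p = 0.0463) and with limma-voom (-0.54, adjusted p = 0.0397). BNIP3 did not pass either (-0.23, adjusted p = 0.273). BCL2, the gene that gave the family its name, was too low to be tested, with 128 fragments in the controls together and 73 in the treated libraries. BCL2A1, BCL2L10, BCL2L14 and BCL2L15 were too low as well, with 0, 0, 42 and 8 fragments in the controls and 2, 3, 149 and 15 in the treated libraries.

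Downstream of the pore, 17 of 18 genes for the apoptosome, caspases and mitochondrial release factors were measured. Of these 9 fell and 3 rose, with a median of -0.24, and with TPM 6 fell and 5 rose. Of all tested genes 34.8% fell and 25.4% rose, and with TPM 19.8% fell and 42.0% rose. CYCS, which encodes cytochrome c, fell from 64.7 ± 3.22 to 25.4 ± 0.925 FPKM (SD, n = 3), a log2 difference of -1.31 (SE 0.052, limma adjusted p = 4.05e-06). VDAC1 and VDAC3, channels of the outer mitochondrial membrane, fell from 83.4 ± 3.27 to 36.9 ± 1.39 and from 32.4 ± 2.13 to 17.0 ± 1.09 FPKM. APAF1, the scaffold of the apoptosome, fell from 8.41 ± 0.124 to 4.88 ± 0.194 FPKM. APAF1 was picked after its values were seen. The initiators CASP10 and CASP9 rose, from 2.45 ± 0.164 to 4.09 ± 0.149 and from 0.894 ± 0.0695 to 1.80 ± 0.290 FPKM. CASP9 reached the expression limit only through the treated libraries.

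**Figure D4:**
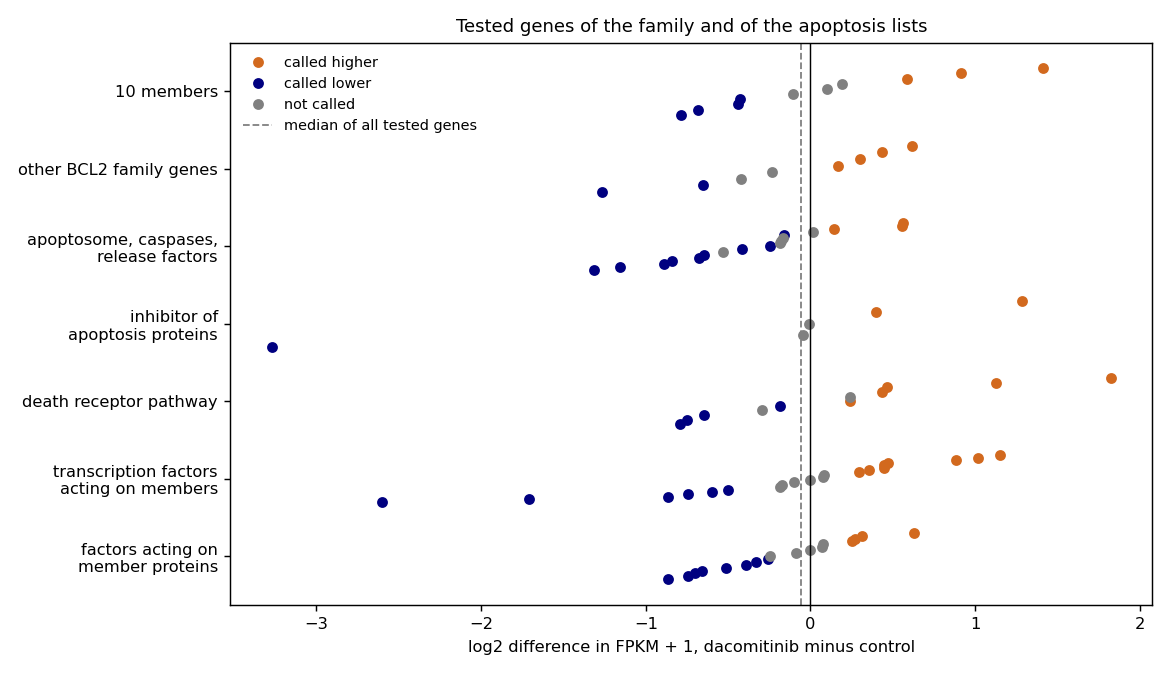
Log2 difference in FPKM + 1, dacomitinib minus control, of every tested gene among the 10 members and in 6 lists of related genes, coloured by call, with a dashed line at the median of all tested genes (-0.06). Calls in both directions appear in every row, the lowest point is BIRC5 at -3.27 and the highest is TNFSF10 at 1.82.

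Inhibitor of apoptosis proteins, which restrain caspases or their activation, had 5 of 7 genes measured, with a median of -0.01. Of these 2 rose and 1 fell (4 and 1 with TPM), against 25.4% and 34.8% of all tested genes (42.0% and 19.8% with TPM). BIRC3, an NF-kB target, stood at 5.03, 4.99 and 4.77 FPKM in controls and at 14.7, 12.9 and 12.8 FPKM with dacomitinib (log2 difference 1.29, SE 0.064, limma adjusted p = 1.08e-05). BIRC2, its close relative, rose from 16.6 ± 1.14 to 22.2 ± 0.729 FPKM (SD, n = 3). BIRC5 (survivin), which also works in chromosome segregation and peaks in mitosis, fell from 31.9 ± 3.22 to 2.41 ± 0.235 FPKM.

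In the death receptor pathway, which reaches the BCL2 family through BID, 11 of 14 genes were measured, with a median of 0.24. Of these 5 rose and 4 fell (6 and 3 with TPM), against 25.4% and 34.8% of all tested genes (42.0% and 19.8% with TPM). TNFSF10, the ligand TRAIL, stood at 46.7, 53.3 and 36.9 FPKM in controls and at 184.9, 147.3 and 156.5 FPKM with dacomitinib. All treated libraries were far above the controls, with a log2 difference of 1.82 (SE 0.15, limma adjusted p = 7.35e-05). CFLAR, which encodes the caspase-8 inhibitor FLIP, rose from 2.37 ± 0.0988 to 6.36 ± 0.134 FPKM (SD, n = 3). TNFRSF21 rose from 81.2 ± 3.59 to 112.6 ± 10.2 FPKM. TNFRSF10A, a TRAIL receptor, fell from 6.97 ± 1.64 to 3.55 ± 0.486 FPKM. The adaptor FADD fell from 6.43 ± 0.180 to 3.49 ± 1.05 FPKM, and the receptor FAS from 5.85 ± 0.748 to 3.35 ± 0.311 FPKM.

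Of 23 transcription factors known to act on member genes 20 were measured, with a median of 0.04. Here 8 rose and 6 fell (12 and 6 with TPM), against 25.4% and 34.8% of all tested genes (42.0% and 19.8% with TPM). DDIT3 (CHOP), an activator of BCL2L11 and BBC3 under endoplasmic reticulum stress, rose from 5.25 ± 0.665 to 12.9 ± 1.34 FPKM (SD, n = 3). FOXO4, a forkhead factor, rose from 4.33 ± 0.418 to 9.76 ± 0.559 FPKM, and ETS2 from 12.5 ± 0.104 to 24.1 ± 2.82 FPKM. Of the other FOXO genes listed, FOXO3 rose from 15.5 ± 0.183 to 21.8 ± 0.524 FPKM. FOXO1 did not pass, at a log2 difference of -0.18 (limma adjusted p = 0.052), and was at 0.11 with TPM. E2F1 fell from 14.4 ± 0.761 to 1.54 ± 0.157 FPKM, and EGR1, an immediate early gene below ERK, from 10.2 ± 0.740 to 2.43 ± 0.0600 FPKM.

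All 17 genes for factors that act on member proteins were measured, with a median of -0.25. Here 4 rose and 8 fell (8 and 4 with TPM), against 25.4% and 34.8% of all tested genes (42.0% and 19.8% with TPM). The dynein light chains that hold BIM and BMF moved in opposite directions: DYNLL1 fell from 45.1 ± 4.60 to 24.3 ± 3.40 FPKM and DYNLL2 rose from 22.3 ± 1.53 to 27.1 ± 1.68 FPKM (SD, n = 3). For turnover of MCL1, both the ubiquitin ligase gene FBXW7 and the deubiquitinase gene USP9X rose, from 2.34 ± 0.0686 to 4.16 ± 0.119 and from 15.6 ± 0.108 to 19.6 ± 0.708 FPKM.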

How the data were processed

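RNA of 3 control and 3 dacomitinib samples was measured by sequencing. The authors deposited 1 table of FPKM per gene, with gene lengths. Build GRCh38 and the tools HISAT2, featureCounts, fastp, CASAVA and DESeq2 1.20.0 are listed, without roles, per the submitters' processing notes. Multiplied by gene length, 100% of FPKM values were whole numbers of fragments (tolerance 0.01). The library size behind the FPKM was 0.946 to 0.954 times the library's fragments in controls and 1.04 to 1.09 times in treated libraries, a scaling applied before deposit. Median ratio factors of the deposited FPKM were 1.01 in all 6 libraries. Coordinates and exon lengths of the 10 members were the same in GENCODE release 29.

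Log2(FPKM + 1) values of 3 against 3 libraries were tested with limma 3.58.1 (R 4.3.3, trended variance), two-sided, where the mean FPKM reached 1, with Benjamini-Hochberg adjustment over all 13748 tested genes. An exact permutation test of 3 against 3 cannot go below p = 0.1, so ratios and sums have no test. The procedure was tested on simulated fragments. There were 18 alternatives: pseudocounts, filters, scalings, limma settings, limma-voom on recovered fragments, a replicate block and leaving out each library. The members, the 8 other lists and the motifs were chosen with earlier results of these data known. Named were all members and any gene of the other BCL2 list. In each further list no more than the 3 strongest called rises and the 3 strongest called falls were named. APAF1, FOXO1 and FOXO3 were added after their values were seen. DCN, LUM, VWF, PMEL and DCT, which were not tested, were also picked by their values. Some genes of the lists are not reported here.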

Additional observations from a re-analysis of the deposited data

How the results depend on the processing

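Members called higher, 3 as reported, were 5 with TPM, and members called lower, 4 as reported, were 2. With TPM the log2 difference of BIK was 0.52, of BID -0.17, of BAK1 -0.15 and of MCL1 0.21. With quantile normalization it was 0.36 for BIK, -0.21 for BAK1, 0.070 for MCL1 and -0.067 for BBC3 (not called, adjusted p = 0.741). With limma-voom MCL1 passed as lower, at -0.11 (adjusted p = 0.0453). TPM rescales each library as a whole. For quantile normalization and limma-voom the cause was not tested. Leaving out 1 library gave 3 to 4 members higher and 4 to 5 lower, with 0.14 to 0.27 for BIK and -0.13 to -0.092 for MCL1.

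A block on the replicate numbers gave 4 members higher and 4 lower, with BIK passing at 0.19 (adjusted p = 0.0335), and 7883 calls over all genes against 8271. No label ties the numbers to shared cultures. Deviations of same-numbered libraries correlated at 0.027, -0.016 and 0.040, and 2 of 3 controls correlated best with their own number. With so few libraries these values cannot decide whether the numbers pair them. The block made a call for BAD (adjusted p = 0.0182).

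Of 30 called genes named from the other lists (markers, FOXO1 and FOXO3 left out), 28 kept their call under every alternative run for them. None of the 566 values of the 32 genes so named, BAD and BNIP3 included, changed sign. Among the markers, COL3A1, KRT16, DSP and PKP1 lost their limma call with quantile normalization (adjusted p = 0.0522, 0.0718, 0.0758 and 0.241). KRT5, ITGA6, DSP and PKP1 lost it with TPM (limma adjusted p = 0.774, 0.213, 0.703 and 0.0669). PKP1 also changed sign, from -0.18 to 0.07 with quantile normalization and 0.13 with TPM. CDH3 and TP63, not called as reported, passed as higher under both scalings. BBC3, BMF and BIK rest on the fewest fragments. The median of all tested genes was -0.06 as reported and 0.235 with TPM.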
